A study of Mus musculus with 4 samples.

Results

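Of the 16308 genes in the count tables, 36 were followed here as glycolysis and hypoxia response genes. They were chosen by name for what they are known to do, and all 36 are rows of the tables. By role they comprised 3 glucose transporters, 3 hexokinases, 5 upper glycolysis enzymes, 2 regulators of fructose 2,6-bisphosphate, 5 lower glycolysis enzymes, 5 genes of lactate and pyruvate, 2 of oxygen sensing, 3 of mitochondria and mitophagy, 5 further hypoxia targets and 3 secreted factors. Transcripts of single cells (scRNA-seq in droplets) had been counted in Cd45+ leukocytes of the muscularis, the outer muscle coat of the small intestine. Muscularis inflammation had been induced by intestinal manipulation, in which the bowel is pressed back and forth during surgery. There were 4 groups of 1 library each: WT C57BL/6J mice and CCR2-/- mice (B6.129S4-Ccr2tm1Ifc/J), each at 24 h and at 72 h post-injury, all female by the study's methods and 12 weeks old. Each library pooled several mice, so the spread between mice is not known. The CCR2 KO is germline, so every cell of those mice lacks the receptor, and no library from uninjured mice was used here.

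Glycolysis splits glucose into pyruvate in the cytosol and yields ATP without oxygen, and lactate dehydrogenase then turns pyruvate into lactate, which leaves the cell through a transporter. When oxygen is scarce, prolyl hydroxylases no longer mark the transcription factor subunit HIF-1α for destruction, and HIF-1 raises the transcription of glucose transporters, glycolytic enzymes and genes such as Vegfa and Bnip3. Neutrophils are known for living largely on glycolysis, and inflammatory Mφs for increasing it.

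HIF-1 binds DNA at a short core, ACGTG or GCGTG. Both cores were looked for on both strands in the 300 bases around gene starts (250 before and 50 after) in RefSeq promoter sequences of GRCm38.p6. Of the 36 members, 33 matched an entry, with Ero1l under its current name Ero1a, and Slc2a3, Bnip3l and Ndrg1 did not. A core was present in a window of 31 of the 33 matched members (93.94%), against 63.39% of the 11880 genes of the count tables that matched. Per window the shares were 84.09% of the members' 44 windows and 43.77% of all 32851, and 61.36% and 20.64% held 2 or more cores. A match is only a description of the letters in the window. Since the members were chosen partly as known hypoxia response genes, a higher share was built into the choice. Windows were not matched for base content or number per gene, so the shares are no test. Shown here are the 250 bases before a RefSeq start of the members with the highest and the lowest value between neutrophil-like and monocyte/Mφ-like cells, Egln3 and Ldhb, of the lactate pair Ldha and Slc16a3, and of Higd1a, whose change with time was among the largest. Cores on either strand are in capitals, and the palindrome CACGTG holds a core on both strands and counts as 2. The Ldha stretch, with 5 cores, lies at chr7:46845554-46845803 on the plus strand, and that of Slc16a3, with 2, at chr11:120948817-120949066 on the plus strand. Egln3 (chr12:54203875-54204124, minus strand) has 1 core, Higd1a (chr9:121857797-121858046, minus strand) has 2 that overlap, and Ldhb (chr6:142507958-142508207, minus strand) has 1. The stretches of Ldha, Slc16a3 and Higd1a lie inside the gene as GENCODE annotates it, whose outermost start is further upstream, and a second RefSeq window of Ldha (chr7:46846832-46847131) is not shown.
Egln3: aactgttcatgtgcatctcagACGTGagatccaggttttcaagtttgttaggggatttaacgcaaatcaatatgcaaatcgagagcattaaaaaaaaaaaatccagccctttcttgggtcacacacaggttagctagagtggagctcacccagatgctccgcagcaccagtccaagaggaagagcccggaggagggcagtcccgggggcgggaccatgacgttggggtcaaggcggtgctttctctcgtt
Ldhb: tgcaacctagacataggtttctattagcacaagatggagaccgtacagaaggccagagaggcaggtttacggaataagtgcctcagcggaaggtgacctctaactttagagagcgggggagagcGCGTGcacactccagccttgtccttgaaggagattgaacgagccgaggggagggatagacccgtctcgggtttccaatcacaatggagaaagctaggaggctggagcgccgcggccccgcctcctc
Ldha: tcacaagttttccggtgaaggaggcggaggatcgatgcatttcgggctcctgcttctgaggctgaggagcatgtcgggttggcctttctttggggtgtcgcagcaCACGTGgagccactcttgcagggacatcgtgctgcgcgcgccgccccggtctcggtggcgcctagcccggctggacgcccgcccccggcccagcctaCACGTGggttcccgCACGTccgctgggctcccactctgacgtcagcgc
Slc16a3: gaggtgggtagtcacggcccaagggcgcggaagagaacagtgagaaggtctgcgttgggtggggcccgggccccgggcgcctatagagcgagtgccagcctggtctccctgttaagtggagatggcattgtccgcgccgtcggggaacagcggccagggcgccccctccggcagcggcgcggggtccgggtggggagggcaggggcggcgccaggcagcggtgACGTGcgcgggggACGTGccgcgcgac
Higd1a: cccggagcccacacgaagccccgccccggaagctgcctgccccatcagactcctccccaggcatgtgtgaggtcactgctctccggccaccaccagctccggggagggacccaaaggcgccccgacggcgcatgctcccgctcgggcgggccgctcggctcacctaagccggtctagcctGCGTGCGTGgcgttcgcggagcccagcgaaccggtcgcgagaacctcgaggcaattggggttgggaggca

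The tables held 5811 cells, of which 5796 were used after 15 cells with markers of non-immune tissue had been left out. Total UMIs (unique molecular identifiers, 1 per captured transcript) were 9736725 to 21206308 per library, and median UMIs per cell 3281.5 to 12859. No more than 1 cell barcode was shared between any pair of libraries. Cells were put into classes by marker genes, which left 277 cells (4.78%) without a class and gave 2460 monocyte/Mφ-like (Mφ-like) and 2362 neutrophil-like cells. A clustering of the same cells gave the same class for 97.5% of 5519. Mφ-like cells numbered 1250 in the WT 24 h, 208 in the CCR2 KO 24 h, 873 in the WT 72 h and 129 in the CCR2 KO 72 h library, and neutrophil-like cells 305, 1321, 185 and 551. Of the latter, 565 held at least 1 UMI of Siglecf, and the 4 measured eosinophil markers other than Siglecf summed to no more than 1.60 CPM (counts per 1000000 UMIs of the class in a library) in them. Ptprc, which encodes CD45, was read in every class of every library. Ccr2 stood at 757 and 1066 CPM in WT and at 92.9 and 84.9 CPM in CCR2 KO Mφ-like cells at 24 h and 72 h, so it was low but not absent in both CCR2 KO libraries. Summed Mφ markers were 411 to 618 CPM in neutrophil-like sums against 11006 to 18046 in Mφ-like sums, and neutrophil markers 492 to 925 CPM in Mφ-like against 45328 to 152512 in neutrophil-like sums. Neutrophil-like cells were shallow, with median UMIs of 1988.5 to 3581 per cell in their Siglecf- and Siglecf+ fractions, against 14188 to 16009 in Mφ-like cells. Levels are CPM and intervals are exact 95% intervals, which cover counting error only. Where 4 values stand in a row, the WT and then the CCR2 KO value at 24 h come first, followed by both genotypes at 72 h in that order.

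As a sum over whole classes, the 36 genes were most abundant in Mφ-like cells at 24 h. The sum was 8164 CPM (8124 to 8205) in WT and 7903 CPM (7811 to 7996) in CCR2 KO Mφ-like cells at 24 h, and 3656 CPM (3623 to 3689) and 4844 CPM (4749 to 4940) at 72 h. In neutrophil-like cells it was 5148, 5218, 6818 and 7403 CPM, so that the order of both classes was opposite at the 2 time points in both genotypes. Their Siglecf- fraction in CCR2 KO at 72 h had 8122 CPM (7960 to 8286). That was above the CCR2 KO and close to the WT Mφ-like sum of 24 h. Dendritic cell (DC)-like cells had 5228, 5441, 4262 and 5207 CPM and T cell-like cells 4204, 4786, 4034 and 5089 CPM, and in each library the T-like sum was the lower. Innate lymphoid cell (ILC)-like cells were summed in the 3 libraries with at least 10 of them, at 5556 CPM in CCR2 KO at 24 h and at 4589.8 and 5302 CPM in the WT and the CCR2 KO library of 72 h. The lowest sums were those of NK cell-like cells, at 3318, 3179 and 3503 CPM in the same 3 libraries, and of B cell-like cells, at 2284 and 2647 CPM in CCR2 KO 24 h and WT 72 h. Pkm (13.5%), Ldha (10.3%), Gapdh (9.40%), Aldoa (8.21%) and Pgam1 (6.65%) made up 48.0% of the members' UMIs in cells with a class. Adm, which encodes the vasodilator adrenomedullin, was near absent, with 12 UMIs in all.

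**Figure D1:**
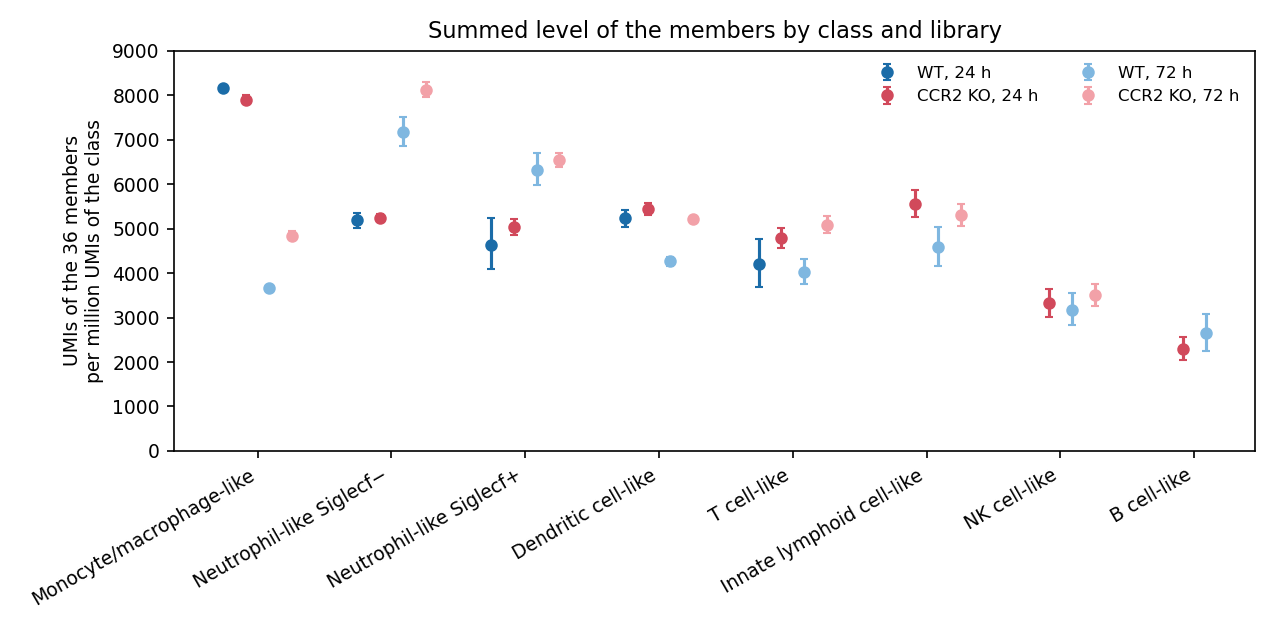
Summed level of the 36 members (CPM, linear axis from 0) in each class and library; points are the sums of a library and bars their exact 95% counting intervals. Mφ-like cells were higher at 24 h (8164 and 7903 CPM) than at 72 h (3656 and 4844 CPM), whereas both neutrophil-like fractions were higher at 72 h than at 24 h on this scale. The Siglecf- fraction of CCR2 KO at 72 h reached 8122 CPM.

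The sums of single cells showed the same spread within the Mφ-like class. The median cell had 7428 CPM in WT at 24 h, with outer deciles of 4073 and 12496, and 3023 CPM (outer deciles 1831 and 6084) in WT at 72 h. In CCR2 KO the medians were 6591 and 4155 CPM. The ranges between the outer deciles overlapped between both times.

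**Figure D2:**
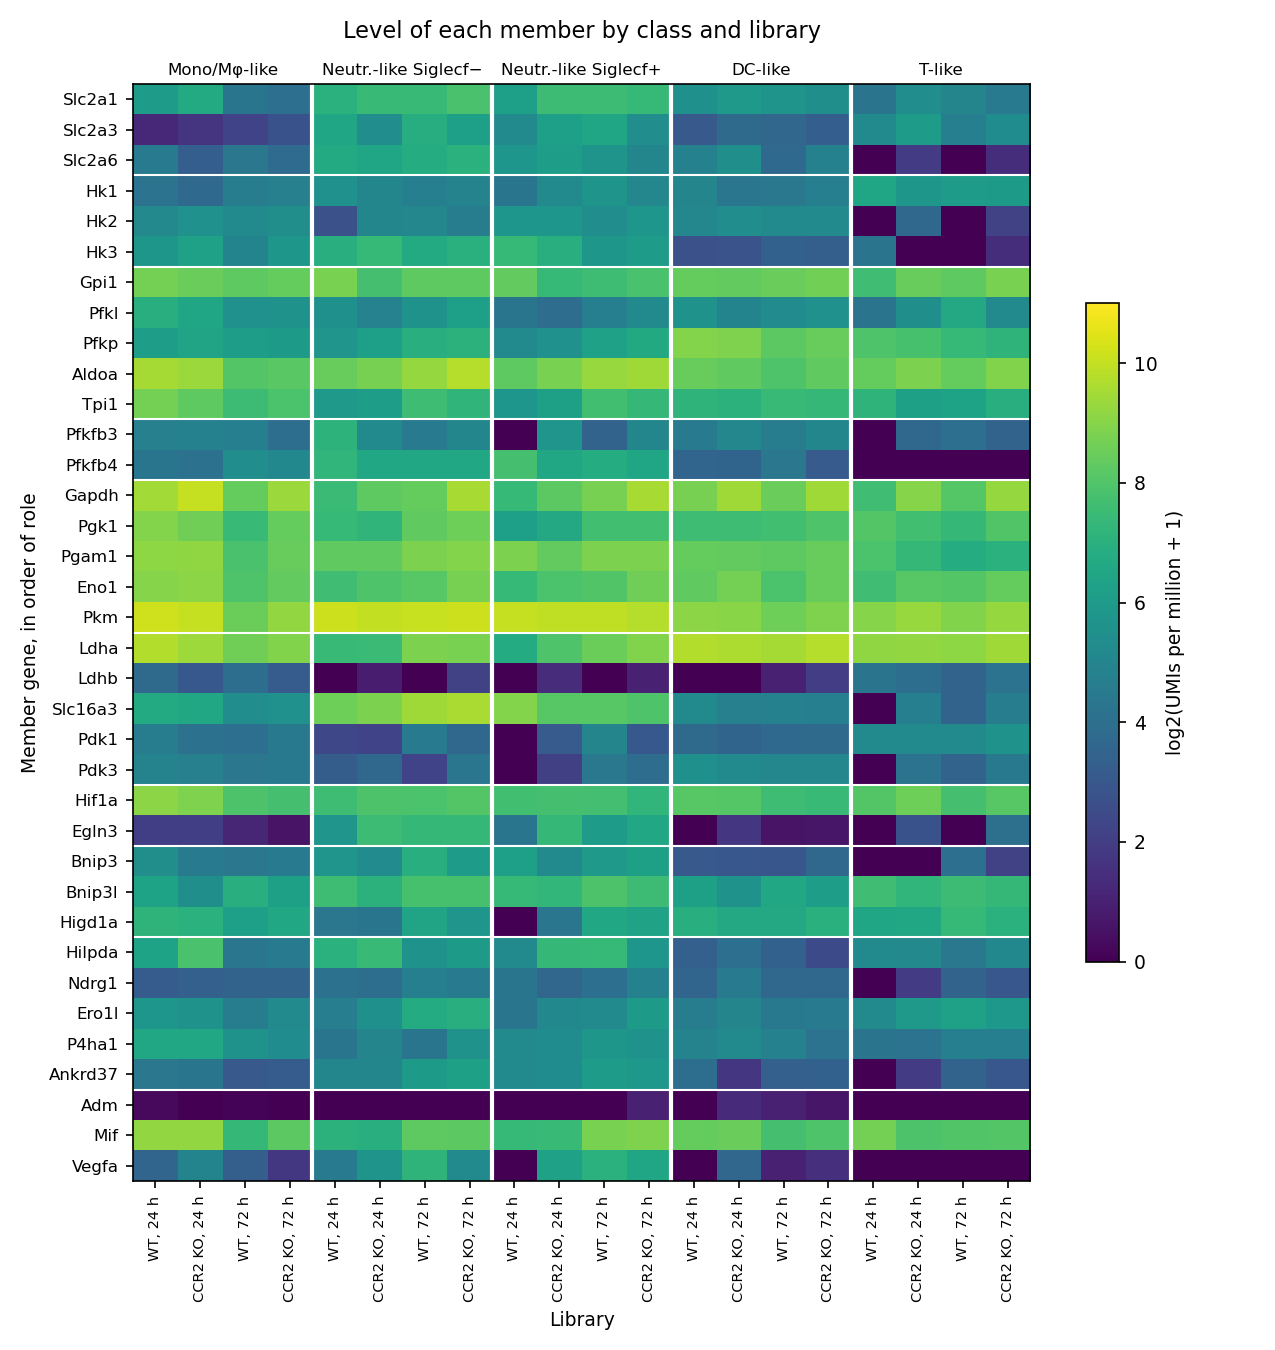
Level of each member (rows, in order of role) as log2(CPM + 1) in the columns of 5 classes (neutrophil-like cells split by Siglecf) and 4 libraries; the darkest cells hold no UMI or hardly any. Egln3 stands out in the neutrophil-like columns, Slc2a3 in the neutrophil-like and T-like columns and Pfkp in the DC-like columns, and Adm is dark throughout.

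The first question was which members separate neutrophil-like from Mφ-like cells. As a share of UMIs over the 4 libraries, glucose transporters, the lactate exporter and several hypoxia targets were higher in neutrophil-like cells. Ldhb, Tpi1 and part of the other enzymes were higher in Mφ-like cells, though Tpi1 was not in WT at 72 h. Shares are not amounts per cell: the shallower neutrophil-like cells held 0.567 UMIs of Slc2a1 per cell against 0.769 in Mφ-like cells, and 0.281 against 0.303 of Slc2a6, but 0.485 against 0.035 of Egln3. Per-library sums of the classes were compared with edgeR's quasi-likelihood test with the library as a block, in which the neutrophil-like value is the mean of the Siglecf- and Siglecf+ fractions, and p-values were adjusted by Benjamini-Hochberg over all 8769 genes tested. Of the 35 members tested (Adm was too low), 16 were higher in neutrophil-like cells, where 28% of all genes tested were higher, and 10 were lower, where 40.7% of all genes were lower. The median log2 fold change was 0.39 over the members and -0.30 over all genes tested. Of the 10 lower calls, 3 remained without the WT 24 h library and 2, Tpi1 and Ldhb, without the CCR2 KO 24 h library. DESeq2 called 14 higher and 12 lower, and edgeR without TMM scaling factors 14 higher and 13 lower, with all 26 members called at first keeping their direction in both. Mitochondrial transcripts were 34689 to 58729 CPM in Mφ-like and 4438 to 11437 CPM in neutrophil-like sums, and 9 genes of dissociation stress 2196 to 5406 and 12293 to 16566 CPM, and their part in the class differences was not tested.

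All 3 glucose transporters were higher in neutrophil-like cells. Slc2a3, which encodes the high-affinity transporter GLUT3, stood at 86.9, 45.4, 103 and 58.6 CPM in neutrophil-like cells and at 1.42, 2.26, 3.69 and 5.85 CPM in Mφ-like cells. The classes did not overlap, and the log2 fold change was 4.83 ± 0.37 (SE, 4 libraries, adjusted p = 3.06e-10). Slc2a1 (GLUT1) had 126, 176, 178 and 197 CPM against 66.3, 103, 18.6 and 15.1 CPM, with a log2 fold change of 2.16 ± 0.35 (adjusted p = 1.09e-05), and its classes lay closest at 24 h. Slc2a6 (GLUT6), which sits on lysosomes, had 102, 87.0, 85.9 and 84.4 CPM against 23.1, 8.76, 19.6 and 13.2 CPM, again without overlap, with a log2 fold change of 2.42 ± 0.32 (adjusted p = 6.65e-07). Reads of Slc2a1 may include those of an overlapping antisense gene, since the strand used in counting is not given in the sources used here.

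Hexokinases trap glucose in the cell as glucose 6-phosphate. Hk1 and Hk3 were higher in neutrophil-like cells, by 1.18 ± 0.25 and 1.3 ± 0.24 on the log2 scale (adjusted p = 0.000218 and 6.04e-05). Hk3 stood at 125, 157, 83.8 and 98.7 CPM there, above all 4 Mφ-like values of 54.9, 76.5, 30.3 and 55.6 CPM. Hk2 did not pass the test (log2 fold change -0.03 ± 0.23). Of the regulators of fructose 2,6-bisphosphate, the metabolite that sets the pace of phosphofructokinase, both were higher in neutrophil-like cells. Pfkfb4 had 157, 94.5, 103 and 92.3 CPM against 18.1, 16.1, 41.3 and 33.7 CPM (log2 fold change 2.36 ± 0.30, adjusted p = 1.09e-06), without overlap. Pfkfb3 was higher by 1.15 ± 0.38 (adjusted p = 0.0113), a call that was lost without the CCR2 KO 24 h library, under DESeq2 and with Siglecf-positive cells set at 2 UMIs, and its neutrophil-like levels of 126, 38.9, 17.2 and 32.3 CPM overlapped with 14.6 to 27.4 CPM in Mφ-like cells.

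The enzymes from glucose 6-phosphate to pyruvate did not share a direction. Of the 5 upper enzymes 0 were higher and 2 lower in neutrophil-like cells: Tpi1 (triosephosphate isomerase, log2 fold change -1.09 ± 0.25, adjusted p = 0.000622) and Pfkl (phosphofructokinase, -0.85 ± 0.30, adjusted p = 0.0166). Of the 5 lower enzymes 1 was higher, Pkm (pyruvate kinase, 0.70 ± 0.22, adjusted p = 0.00668), and 2 were lower, Gapdh (-0.64 ± 0.26, adjusted p = 0.0318) and Pgk1 (-0.64 ± 0.25, adjusted p = 0.0256). Pkm stood at 1139, 1012, 1050.4 and 1009 CPM in neutrophil-like cells, nearly level over the libraries, and at 1191, 1034, 371 and 596 CPM in Mφ-like cells, where it was below the neutrophil-like values at 72 h and not at 24 h. Gapdh overlapped between the classes, at 180 to 747 CPM in neutrophil-like and 342 to 1047 CPM in Mφ-like sums. Pgk1 did too, at 141 to 298 and 168 to 494 CPM. At 72 h Gapdh was higher in neutrophil-like cells in both genotypes, and Pgk1 was so in WT. Tpi1 was not lower there in WT at 72 h either, at 195 CPM against 186 CPM in Mφ-like cells. Pgk1 and Gapdh, like Pfkl, lost the call without the WT 24 h or the CCR2 KO 24 h library, and the Pkm call was lost without the WT 72 h library and without TMM factors.

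Genes of lactate and pyruvate were divided. Slc16a3, the gene of the lactate exporter MCT4, had 389, 429, 522 and 535 CPM in neutrophil-like and 106, 92.1, 40.6 and 45.9 CPM in Mφ-like cells. These values did not overlap, and the log2 fold change was 2.87 ± 0.28 (adjusted p = 1.27e-08). Ldhb, the subunit that favours lactate use, was nearly missing from neutrophil-like cells, with 0, 0.962, 0 and 2.31 CPM against 13.1, 7.06, 14.7 and 8.29 CPM. In counts, 9 Ldhb UMIs were found over all neutrophil-like cells and 477 over all Mφ-like cells, and the log2 fold change was -2.90 ± 0.58 (adjusted p = 0.000146). Without the CCR2 KO 72 h library Ldhb fell under the filter on low counts. Ldha, the subunit that favours lactate formation, was lower by -0.79 ± 0.26 (adjusted p = 0.0115), as were the pyruvate dehydrogenase kinases Pdk1 (-0.81 ± 0.33, adjusted p = 0.0337) and Pdk3 (-0.84 ± 0.30, adjusted p = 0.0173), and these 3 calls were lost without either 24 h library. In WT at 72 h Ldha and Pdk1 were instead higher in neutrophil-like than in Mφ-like cells.

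In oxygen sensing, Egln3 gave the largest difference of all 35 members tested. It encodes the prolyl hydroxylase PHD3, itself a HIF target, and had 50.6, 184, 120 and 132 CPM in neutrophil-like cells against 3.06, 3.11, 1.26 and 0.488 CPM in Mφ-like cells. All 4 neutrophil-like values lay far above, the WT 24 h value being the lowest, and the log2 fold change was 5.68 ± 0.41 (adjusted p = 8.37e-11), or 6.47 without the WT 24 h library. Hif1a, which encodes HIF-1α, had 193, 240, 226 and 212 CPM against 545, 475, 242 and 217 CPM. Its classes overlapped at 72 h, and its difference of -0.47 ± 0.20 (adjusted p = 0.0449) was lost without either 24 h library, without the WT 72 h library, without the library block and with stricter gates.

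The mitophagy receptors Bnip3 and Bnip3l were higher in neutrophil-like cells, by 1.49 ± 0.27 and 1.57 ± 0.20 (adjusted p = 4.01e-05 and 4.46e-07). Higd1a, a small protein of the respiratory chain, was lower by -1.15 ± 0.31 (adjusted p = 0.00209), a call lost without the CCR2 KO 24 h library. In WT at 72 h Higd1a was instead higher in neutrophil-like cells (88.1 against 73.6 CPM). Of the 5 further hypoxia targets 3 were higher: Ankrd37 (2.15 ± 0.33, adjusted p = 6.91e-06), the growth-arrest gene Ndrg1 (1.20 ± 0.26, adjusted p = 0.000334) and Hilpda (1.0 ± 0.36, adjusted p = 0.0184). Hilpda, which slows the breakdown of lipid droplets, lost its call without either 72 h library, without the block or TMM factors and under DESeq2. In CCR2 KO at 24 h its level was instead lower in neutrophil-like cells (173 against 226 CPM). Among secreted factors, Vegfa (vascular endothelial growth factor A) had 20.8, 54.1, 135 and 60.9 CPM in neutrophil-like and 11.1, 29.9, 9.20 and 2.44 CPM in Mφ-like cells. The classes overlapped at 24 h across genotypes, but within each library the neutrophil-like value was the higher, and the log2 fold change was 2.66 ± 0.46 (adjusted p = 4.43e-05). Mif, an inflammatory cytokine, did not pass the test (-0.44 ± 0.32).

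**Figure D3:**
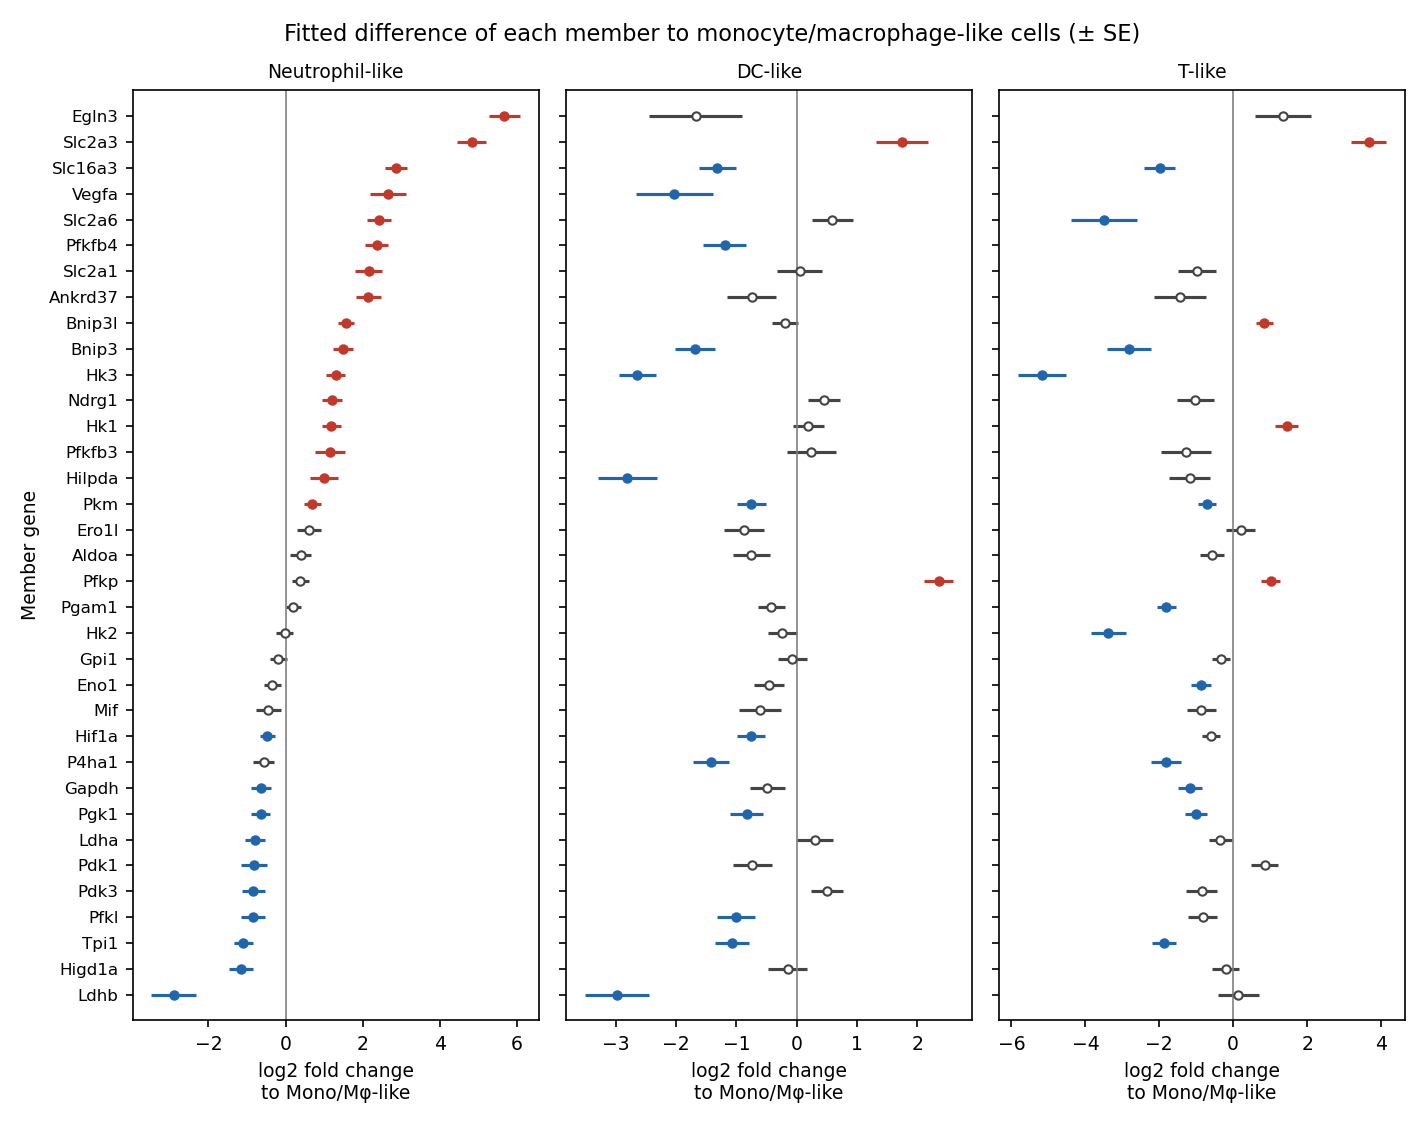
Fitted log2 fold change of each member to Mφ-like cells (points, with bars of ± 1 SE) in neutrophil-like, DC-like and T-like cells, over 4 libraries; filled points passed an adjusted p of 0.05, red higher and blue lower, and each panel has its own axis. Pfkfb4 and Vegfa are not drawn in the T-like panel, where they had 0 UMIs. Egln3 (5.68) and Slc2a3 (4.83) lead on the neutrophil-like side, Pfkp (2.36) among DC-like and Slc2a3 (3.67) among T-like cells.

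Within neutrophil-like cells, those with a Siglecf UMI were compared with the others, in the same fit. Of the 35 members 0 were higher with Siglecf (0.422% of all genes were) and 4 were lower (2.04% of all genes were). At an unadjusted p under 0.05 the counts were 0 and 15, and DESeq2 called 0 and 4. Slc16a3 stood at 490, 284, 281 and 247 CPM with Siglecf and at 381, 454, 697 and 776 CPM without, so it was lower with Siglecf in 3 of 4 libraries and higher in WT at 24 h, which had 24 Siglecf+ cells. Its log2 fold change was -1.49 ± 0.30 (adjusted p = 0.0136). Slc2a6 had 54.5, 70.5, 51.1 and 32.4 CPM with Siglecf and 106, 89.9, 111 and 128 CPM without, lower in all 4 libraries (-1.59 ± 0.37, adjusted p = 0.0261). Pgk1, which makes ATP from 1,3-bisphosphoglycerate, and Gpi1 (glucose 6-phosphate isomerase) were lower by -1.22 ± 0.31 and -1.13 ± 0.26 (adjusted p = 0.0388 and 0.0275). Pgk1 had 72.7, 99.3, 204 and 204 CPM with and 162, 148, 319 and 377 CPM without Siglecf, and Gpi1 327, 167, 189 and 228 CPM against 440, 215, 311 and 312 CPM, each lower in all 4 libraries. These calls did not stand up to changes of the setting: 0 remained without the WT 72 h library, 0 without the CCR2 KO 72 h library, 2 without the WT 24 h library, and 1 without the block. Without TMM factors 0 members were lower and 1, Hk2, was higher, and the median of all genes moved from -0.09 to 0.49 on the log2 scale.

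DC-like cells differed from Mφ-like cells mostly by lower members. Of 35 tested, 2 were higher (11.1% of all genes) and 13 lower (15.5% of all genes). The 2 higher members were Pfkp, the platelet type of phosphofructokinase, and Slc2a3. Pfkp had 501, 463, 298 and 348 CPM in DC-like against 70.5, 85.9, 71.8 and 61.9 CPM in Mφ-like cells, far apart in every library (log2 fold change 2.36 ± 0.24, adjusted p = 9.71e-08), while its partner Pfkl was lower (-1.01 ± 0.32, adjusted p = 0.0202). Slc2a3 had 7.40, 13.0, 11.3 and 8.84 CPM, above each Mφ-like value (1.75 ± 0.43, adjusted p = 0.0032).

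Ldhb was again nearly missing, with 0, 0, 1.03 and 3.05 CPM in DC-like cells (-2.99 ± 0.54, adjusted p = 0.000147). Hk3 had 5.55, 6.14, 9.79 and 9.15 CPM, below every Mφ-like value (-2.64 ± 0.31, adjusted p = 7.39e-07). Hilpda stood at 9.25, 15.3, 9.79 and 4.57 CPM against 83.0, 226, 18.8 and 21.9 CPM in Mφ-like cells, so the gap was widest at 24 h. Its log2 fold change was -2.81 ± 0.48 (adjusted p = 9.41e-05), or -2.10 without the CCR2 KO 24 h library. Bnip3 (7.40, 6.91, 6.70 and 11.6 CPM, -1.68 ± 0.33, adjusted p = 0.000416) and P4ha1, a collagen prolyl hydroxylase (29.6, 36.8, 27.3 and 17.1 CPM, -1.42 ± 0.30, adjusted p = 0.000791), were also lower. Vegfa, at 0, 11.5, 1.03 and 1.83 CPM, was lower by -2.03 ± 0.64 (adjusted p = 0.0234), a call lost without either WT library, with stricter gates, without the block and without dividing cells. In all, 7 lower calls remained without the WT 24 h library and 8 without the CCR2 KO 24 h library. Summed Mφ markers in DC-like cells were 693 to 1408 CPM.

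T cell-like cells had 4 members higher (14.6% of all genes) and 14 lower (25.7% of all genes) than Mφ-like cells. Numbers were small, with 10, 44, 32 and 67 cells. Slc2a3 had 35.8, 67.1, 25.6 and 39.6 CPM, all above the Mφ-like values (log2 fold change 3.67 ± 0.47, adjusted p = 1.39e-06). The other higher members were Hk1 (1.44 ± 0.30, adjusted p = 0.000514), with 89.5, 55.4, 66.6 and 62.0 CPM against 12.4 to 26.3 CPM, Pfkp (1.02 ± 0.26, adjusted p = 0.0033) and Bnip3l (0.85 ± 0.23, adjusted p = 0.00557). The 5 lower glycolysis enzymes were all lower in the fit, from Pgam1 (phosphoglycerate mutase, -1.81 ± 0.26, adjusted p = 5.03e-06) to Pkm (-0.72 ± 0.25, adjusted p = 0.0252). Pkm was nonetheless at or above 481 CPM in every T-like sum, against 371 CPM in WT Mφ-like cells at 72 h. Without TMM factors Pgk1, Eno1 and Pkm lost the call, which left 11 lower members. The lactate dehydrogenases did not pass the test: Ldha differed by -0.35 ± 0.31 and Ldhb by 0.14 ± 0.55.

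Several myeloid members were at or near 0 in T-like cells. No UMI was found for Pfkfb4, against 26.7 CPM over all Mφ-like cells, which is at least 10.5-fold lower against a floor of 3 counts over the class, with an exact 95% limit of 8.48-fold. Vegfa also had 0 UMIs, against 11.7 CPM, at least 4.60-fold lower against that floor, with a limit of 3.73-fold. Hk3 and Slc2a6 had 2 UMIs each, which made them 28.6-fold (7.89 to 236) and 11.7-fold lower (3.24 to 97.1). Hk2 had 0, 11.7, 0 and 3.44 CPM against 35.6 to 46.6 CPM in Mφ-like cells (-3.38 ± 0.48, adjusted p = 4.92e-06), or -4.26 without the CCR2 KO 24 h library. Bnip3 had 0, 0, 15.4 and 3.44 CPM (-2.81 ± 0.60, adjusted p = 0.000614), or -3.92 without the WT 72 h and -2.22 without the CCR2 KO 24 h library. The count of lower members was 9 without the CCR2 KO 24 h library, where Pgk1, Eno1, Gapdh, Pkm and Vegfa lost the call.

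The next question was how the members differed between 24 h and 72 h. With 1 library per group, single libraries were not tested against each other, and ratios of CPM are given with their counting interval for genes with at least 20 UMIs over both libraries and a mean of at least 10 CPM. As sums over the Mφ-like class, whose mix of subsets differed between the times (numbers below), most members were lower at 72 h. In WT 18 of 32 were at least 2-fold lower (5.61% of all genes were) and 1 at least 2-fold higher (6.94% of all genes), and in CCR2 KO 8 of 31 were lower (4.29% of all genes) and 2 higher (10.7% of all genes). Of 31 members measured in both genotypes, 24 were lower and 3 higher at 72 h in both, against 30.6% and 39% of all genes. The median log2 ratio of the members was -1.04 in WT and -0.49 in CCR2 KO, against -0.01 and 0.15 over all genes. In WT the sum changed by -1.16 (95% interval -1.17 to -1.14), and that of CCR2 KO by -0.71 (-0.74 to -0.67).

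Hypoxia targets were among the lowest ratios in Mφ-like cells. Hilpda went from 83.0 to 18.8 CPM in WT (log2 ratio -2.14, -2.35 to -1.95) and from 226 to 21.9 CPM in CCR2 KO (-3.35, -3.83 to -2.93). Slc2a1 went from 66.3 to 18.6 CPM (-1.83, -2.04 to -1.63) and from 103 to 15.1 CPM (-2.75, -3.35 to -2.24). Both were therefore lower at 72 h in either genotype, and furthest apart in CCR2 KO. Vegfa went from 29.9 to 2.44 CPM in CCR2 KO (-3.49, -5.27 to -2.35), which rests on 5 UMIs at 72 h, and was close to level in WT (11.1 and 9.20 CPM). Mif went from 601 to 161 CPM in WT (-1.89, -1.96 to -1.83) and from 595 to 303 CPM in CCR2 KO.

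Among glycolytic enzymes in Mφ-like cells, Pkm was lower at 72 h in WT (log2 ratio -1.68, -1.73 to -1.64), as were Pgk1 (-1.55, -1.62 to -1.48), the aldolase gene Aldoa (-1.44, -1.50 to -1.39) and Pfkl (-1.39, -1.52 to -1.26). In CCR2 KO the ratio was -1.18 for Aldoa (-1.31 to -1.05), -1.26 for P4ha1 (-1.64 to -0.91), and -1.13 for Hif1a (-1.28 to -0.98). Ankrd37 was lower in both, by -1.39 (-1.74 to -1.07) and -1.12 (-2.01 to -0.36). Against this, Pfkfb4 went from 18.1 to 41.3 CPM in WT (1.19, 0.99 to 1.39) and from 16.1 to 33.7 CPM in CCR2 KO (1.06, 0.54 to 1.60), and Hk1 from 12.4 to 26.3 CPM in CCR2 KO (1.08, 0.48 to 1.69).

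The CCR2 KO 72 h Mφ-like sum differed from the others in state. Cell division genes summed to 2181 CPM in it, against 348 to 564 CPM in the other 3, and mitochondrial transcripts to 58729 CPM, against 34689 to 44086 CPM. Without dividing cells, which left 74 of its 129 cells, the change of the sum in CCR2 KO was -0.52, and with cells of at most 5% mitochondrial UMIs, which left 42, it was -0.34.

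In neutrophil-like cells most members were higher at 72 h in CPM, but so were most other genes. In WT 9 of 32 members were at least 2-fold higher (22.6% of all genes were) and 1 lower (4.87% of all genes), and in CCR2 KO 9 of 33 were higher (22.4% of all genes) and 1 lower (3.42% of all genes). Of 32 members measured in both genotypes, 21 were higher and 7 lower in both, against 59.6% and 17.5% of all genes. In WT the sum changed by 0.41 (0.34 to 0.47), and that of CCR2 KO by 0.50 (0.48 to 0.53), while the median over all genes was 0.45 and 0.41. Once TMM factors (0.823, 0.846, 1.20 and 1.20) had taken out that shift, the change of the sum was -0.14 in WT and 0.0055 in CCR2 KO. The direction of the sum in neutrophil-like cells therefore depends on the scaling.

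Single members moved beyond that shift. Higd1a had 18.2 and 18.5 CPM at 24 h and 88.1 and 64.6 CPM at 72 h in neutrophil-like cells of WT and CCR2 KO (log2 ratio 2.24, 1.37 to 3.27, and 1.80, 1.39 to 2.22). Mif went from 134 to 365 CPM (1.45, 1.09 to 1.82) and from 129 to 376 CPM (1.54, 1.38 to 1.7), and Ldha from 167 to 419 CPM (1.32, 0.996 to 1.66) and from 189 to 462 CPM (1.29, 1.15 to 1.43). In each of these 3 genes both 72 h libraries lay above both 24 h libraries. Tpi1 (1.67 in WT and 1.15 in CCR2 KO) and Ero1l, the endoplasmic reticulum oxidase (1.63 and 1.10), showed the same order. Gapdh was more than 2-fold higher in both genotypes, at 180 and 378 CPM in WT (1.07, 0.74 to 1.4) and at 306 and 747 CPM in CCR2 KO (1.29, 1.18 to 1.39), but its CCR2 KO 24 h and WT 72 h levels lay close.

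Several members passed 2-fold in 1 genotype only. Vegfa was higher at 72 h in WT (2.67, 1.90 to 3.60), at 20.8 and 135 CPM, and close to level in CCR2 KO (54.1 and 60.9 CPM). Hk2 went from 9.08 to 36.5 CPM in WT (1.95, 0.66 to 3.52), and stood at 35.6 and 38.3 CPM in CCR2 KO. Pfkl was more than 2-fold higher in CCR2 KO (1.11, 0.73 to 1.5) and not in WT (-0.13, -1.06 to 0.72). Pfkfb3 went from 126 to 17.2 CPM in WT (-2.79, -4.12 to -1.84), and Hilpda from 173 to 59.5 CPM in CCR2 KO (-1.53, -1.82 to -1.26).

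**Figure D4:**
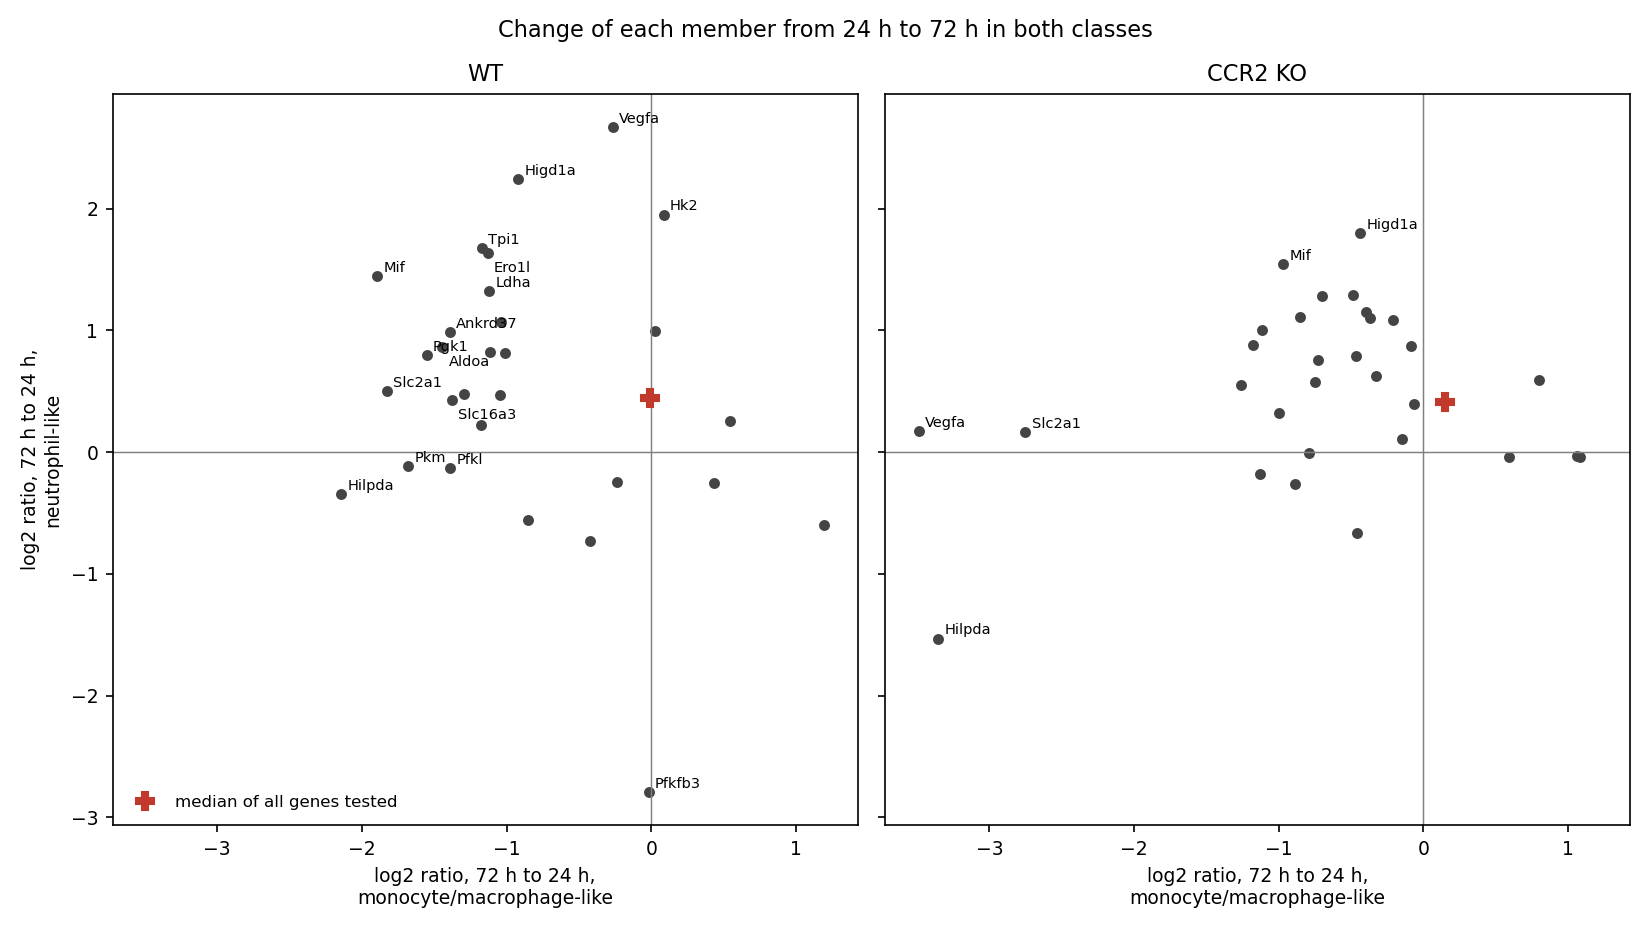
Log2 ratio of 72 h to 24 h for each member in Mφ-like (horizontal axis) and neutrophil-like cells (vertical axis), in WT and in CCR2 KO; the red cross is the median of all genes tested and names mark members with a ratio beyond 1.3. Most points lie left of 0 and many above it, as Mif (-1.89 and 1.45 in WT), whereas Hilpda is below 0 on both axes.

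Whether the change with time differed between both classes was then tested with edgeR over the 8 sums of Mφ-like and neutrophil-like cells, with the genotypes standing in as the 2 libraries of each time. This test was added after the data had been seen, and it has 2 residual degrees of freedom. Of 35 members, 17 changed more in the direction of neutrophil-like cells (7.66% of all 10256 genes did) and 2 more in that of Mφ-like cells (6.44% of all genes did). The median difference was 1.09 over the members and 0.00 over all genes. The other 16 members did not pass the test. The count of 17 was 14 with DESeq2, 23 without TMM factors and 12 without dividing cells, and 11 without the WT 24 h library or 14 without any of the other 3.

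By role the 17 took in Slc2a1 (difference 2.15 ± 0.33, adjusted p = 0.000634), the upper enzymes Aldoa (1.72 ± 0.33, adjusted p = 0.0024), Tpi1 (1.69 ± 0.34, adjusted p = 0.00297) and Pfkl (1.23 ± 0.36, adjusted p = 0.0262), and the lower enzymes Gapdh (1.59 ± 0.32, adjusted p = 0.00337), Pgk1 (1.34 ± 0.33, adjusted p = 0.0103), Pgam1 (1.09 ± 0.32, adjusted p = 0.0265) and enolase Eno1 (1.04 ± 0.32, adjusted p = 0.0337). Both the lactate former Ldha (1.64 ± 0.33, adjusted p = 0.00292) and the lactate exporter Slc16a3 (1.10 ± 0.31, adjusted p = 0.0241) were among them. Of the hypoxia targets and secreted factors, Vegfa had the largest difference (2.68 ± 0.39, adjusted p = 0.000385, or 3.42 without the WT 72 h library), followed by Mif (2.46 ± 0.33, adjusted p = 0.000225), Higd1a (2.21 ± 0.36, adjusted p = 0.000831), Ankrd37 (1.79 ± 0.39, adjusted p = 0.00498), Ero1l (1.54 ± 0.36, adjusted p = 0.00857), Hilpda (1.39 ± 0.39, adjusted p = 0.0215) and P4ha1 (1.35 ± 0.39, adjusted p = 0.0274). The difference of Hilpda came from a steeper decrease in Mφ-like cells, since its level was also lower in neutrophil-like cells at 72 h. The opposite was found for Pfkfb4 (-1.93 ± 0.34, adjusted p = 0.00138) and Hk1 (-1.40 ± 0.39, adjusted p = 0.0213). Without the WT 24 h library Pgk1, Eno1, P4ha1, Ero1l, Slc16a3 and Pgam1 lost the call, and Eno1, Hilpda, Hk1, Pfkl, Pgk1, Pgam1, P4ha1 and Slc16a3 lost it without at least 1 of the other libraries. The calls of Slc2a1, Aldoa, Tpi1, Gapdh, Ldha, Higd1a, Ankrd37, Mif, Vegfa and Pfkfb4 were kept in every one of these 4 fits.

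Loss of CCR2 was compared next, since it keeps monocytes from entering the tissue. At 24 h the sum of the members in Mφ-like cells was nearly the same in both genotypes (log2 ratio of CCR2 KO to WT -0.05, -0.07 to -0.03), and 2 of 32 members were at least 2-fold higher (2.41% of all genes) and 1 lower (1.26% of all genes). Hilpda was higher in CCR2 KO (226 against 83.0 CPM, 1.45, 1.32 to 1.57), as was Vegfa (29.9 against 11.1 CPM, 1.44, 1.08 to 1.78), and Slc2a6 was lower (8.76 against 23.1 CPM, -1.38, -1.97 to -0.87). At 72 h the sum was higher in CCR2 KO by 0.41 (0.37 to 0.44), with 1 of 31 members at least 2-fold higher (5.51% of all genes) and 0 lower (2.39% of all genes). That member was Pgk1 (340 against 168 CPM, 1.01, 0.89 to 1.14). With cells of at most 5% mitochondrial UMIs the ratio of the sum was 0.83 and the count of members past 2-fold was 7, over 42 cells of the CCR2 KO 72 h library.

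In neutrophil-like cells the sums of both genotypes were close, with log2 ratios of 0.02 (-0.03 to 0.07) at 24 h and 0.12 (0.06 to 0.17) at 72 h. At 24 h 3 of 32 members were at least 2-fold higher in CCR2 KO (5.23% of all genes) and 2 lower (3.33% of all genes). Hk2 was higher (35.6 against 9.08 CPM, 1.88, 0.89 to 3.31), as were Egln3 (184 against 50.6 CPM, 1.84, 1.40 to 2.37) and Vegfa (54.1 against 20.8 CPM, 1.34, 0.65 to 2.21). Pfkfb3 (38.9 against 126 CPM, -1.69, -2.06 to -1.31) and Gpi1 (208 against 432 CPM, -1.06, -1.24 to -0.87) were lower. At 72 h 0 of 34 members were 2-fold higher (2.83% of all genes) and 2 were lower (2.13% of all genes): Pdk1 (9.69 against 25.8 CPM, -1.44, -2.50 to -0.25) and Vegfa (60.9 against 135 CPM, -1.16, -1.60 to -0.70). Of 32 members measured at both times in neutrophil-like cells, 13 were higher and 8 lower in CCR2 KO at both, against 25.7% and 24.9% of all genes. Of 30 in Mφ-like cells 6 were higher and 6 lower, against 27.1% and 25.9% of all genes. Genotype and pool of mice cannot be told apart.

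The Mφ-like class was last split by the marker sets of the subsets the study names, and sums were taken where a subset had at least 20 cells in a library. In WT it held 568 Arg1, 182 Ly6c, 171 Fabp5, 17 Cd206 and 19 Cx3cr1 cells at 24 h. At 72 h these numbers were 188, 21, 3, 356 and 101. In CCR2 KO they were 67, 14, 42, 7 and 36 at 24 h, and 32, 9, 3, 31 and 25 at 72 h. Timp2 cells numbered 0 and 8 in WT and 0 and 1 in CCR2 KO at 24 h and 72 h, too few for a sum. Cells that no marker set claimed numbered 293 and 196 in WT and 42 and 28 in CCR2 KO. Their sums were 7417 and 3866 CPM in WT and 8715 and 5109 CPM in CCR2 KO. The part of this mix in the ratios of the whole class was not tested. The study reports the Cd206 and Timp2 subsets as fully absent from CCR2-deficient mice during resolution. It also describes an almost complete loss of their Arg1 and Fabp5 subsets in acute inflammation. Cells of the CCR2 KO libraries were given these names here by marker sets alone. Whether they match the subsets of the study was not tested. The Arg1 subset had the highest sums in all 4 libraries, at 9290 CPM (9226 to 9353) in WT and 9470 CPM (9284 to 9659) in CCR2 KO at 24 h, and 5527 CPM (5440 to 5615) and 7397 CPM (7072 to 7732) at 72 h. Sums in Ly6c monocytes were 7753 CPM in WT at 24 h and 5450 CPM at 72 h, the latter over 21 cells and inside the interval of the Arg1 subset. The Fabp5 subset had 6605 CPM in WT and 8253 CPM in CCR2 KO at 24 h. The Cd206 subset had 2721 CPM (2676 to 2766) in WT and 3785 CPM (3625 to 3951) in CCR2 KO at 72 h, and the Cx3cr1 subset 2495 CPM in WT at 72 h and 4059 and 3778 CPM in CCR2 KO at 24 h and 72 h. At 72 h the Arg1 sum was thus above those of the Cd206 and Cx3cr1 subsets in both genotypes, beyond counting error.

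Single members were then read within the Arg1 subset, the one with sums in all 4 libraries. In Arg1 cells of WT, Pkm had 1338 CPM at 24 h and 612 CPM at 72 h, Ldha 1016 and 620 CPM, Mif 683 and 267 CPM, and Hilpda 112 and 36.2 CPM. In CCR2 KO the Arg1 values at both times were 1184 and 848 CPM for Pkm, 831 and 814 CPM for Ldha, 660 and 401 CPM for Mif, and 288 and 60.6 CPM for Hilpda. Ldha was thus nearly level in CCR2 KO Arg1 cells. Pfkfb4, higher at 72 h in the whole class, had 15.6 and 30.5 CPM in WT and 11.5 and 22.7 CPM in CCR2 KO Arg1 cells. At 72 h Slc16a3 stood at 82.1 CPM in WT and 174 CPM in CCR2 KO Arg1 cells, against 17.2 and 9.03 CPM in Cd206 and 18.7 and 12.4 CPM in Cx3cr1 cells. Division genes in the CCR2 KO 72 h subsets summed to 1144 to 2953 CPM, against 397 to 683 CPM in the same subsets of WT at 72 h, and their part in these values was not tested.

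**Figure D5:**
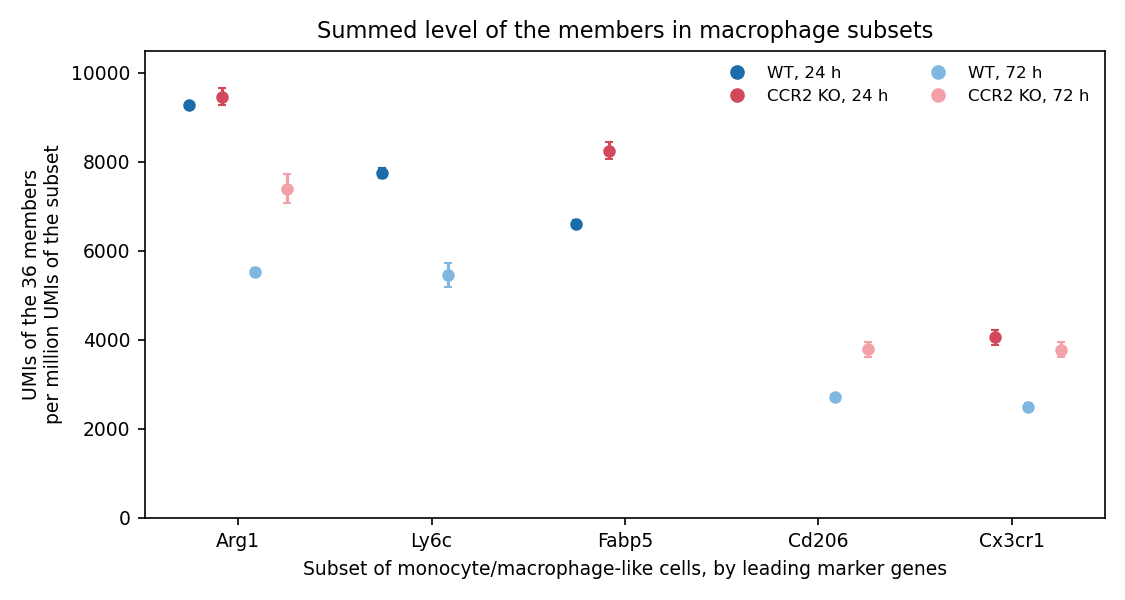
Summed level of the 36 members (CPM within the subset, linear axis from 0) in subsets of Mφ-like cells named by their leading markers, by library; bars are exact 95% counting intervals and subsets with fewer than 20 cells in a library are left out. The Arg1 subset had the highest sum in every library, up to 9470 CPM, and the Cd206 and Cx3cr1 subsets the lowest, from 2495 to 4059 CPM.

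Related genes outside the 36 were counted in 4 lists. Of all genes tested, 28% were higher and 40.7% lower in neutrophil-like than in Mφ-like cells. These shares were 11.1% and 15.5% in DC-like and 14.6% and 25.7% in T-like cells. Of other glycolysis and pyruvate genes 21 of 24 were measured and 10 tested between neutrophil-like and Mφ-like cells, of which 1 was higher and 5 lower, among them the phosphatase gene Minpp1 (-3.31 ± 0.29, adjusted p = 1.93e-09). In DC-like cells 3 of these were higher and 1 lower, led by Eno3, the muscle enolase (2.55 ± 0.47, adjusted p = 0.000207), and in T-like cells 0 and 1. Of the 7 genes of the pentose phosphate pathway, which as a whole yields NADPH, 2 were higher and 2 lower in neutrophil-like cells. Taldo1 (transaldolase) was higher (1.37 ± 0.21, adjusted p = 5.71e-06) and Tkt (transketolase) lower (-1.24 ± 0.17, adjusted p = 1.32e-06). With Siglecf, 3 pentose phosphate genes were lower, G6pdx, Taldo1 and Pgd (-1.48, -1.13 and -1.05), where 2.04% of all genes were, and without the CCR2 KO 72 h library 0 genes of all those tested were lower. In T-like cells 0 pentose phosphate genes were higher and 4 lower.

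Of 8 oxygen sensing genes tested, 3 were higher and 3 lower in neutrophil-like cells, where 28% and 40.7% of all genes were. The HIF antagonist Cited2 was higher (1.63 ± 0.30, adjusted p = 5.57e-05) and the ubiquitin ligase Siah2 lower (-2.54 ± 0.32, adjusted p = 3.85e-07). Of 13 further hypoxia response genes tested, 6 were higher and 3 lower, with the repressors Bhlhe40 (2.58 ± 0.26, adjusted p = 1.73e-08) and Mxi1 (1.80 ± 0.19, adjusted p = 2.99e-08) among the higher. Hmox1, heme oxygenase 1, was lower in DC-like cells (-4.79 ± 0.31, adjusted p = 3.78e-10). For the difference in the change with time, 0 of 15 other glycolysis genes and 0 of 7 pentose phosphate genes passed in either direction, where 7.66% and 6.44% of all genes did. Of the oxygen sensing genes 2 were higher and 1 lower in that test, and of the further hypoxia genes 1, the mitochondrial gene Fam162a (2.40 ± 0.38, adjusted p = 0.000682), was higher and 2 were lower.

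Some levels are uncertain because reads of near-identical genes may have been split or dropped in counting. For 11 members (Gapdh, Eno1, Aldoa, Gpi1, Tpi1, Pkm, Ldha, Ldhb, Bnip3, Higd1a and Mif) another annotated gene matched within the last 500 transcript bases. A match had at least 95% identity over 100 or more aligned bases, so some cover only part of the 500. Gapdh had 99 matches, counted by gene and transcript type, so a few genes are counted repeatedly. Of the matched genes 1 each of Gapdh, Eno1, Aldoa and Gpi1 was itself in the tables. That of Gpi1 was Mrpl27, matched over 101 bases.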

How the data were processed

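Per the labels, Cd45+ cells were sorted and sequenced with the 10x 3' v3 chemistry. The authors deposited 1 table of UMI counts (genes by cells) per library. The submitters' processing notes name Cell Ranger 3.0.2, Seurat and GRCm38/mm10, and the study's methods removed cells with fewer than 200 genes or over 10% mitochondrial UMIs. Doublet removal and the strand of counting are not given in the sources used here. Scrublet marked 10 of 5796 cells (0.173%), a rate too low to rely on, so doublets were not removed.

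From the counts, cells were given a class where the scaled marker score was at least 0.4 and led the next class by 0.2, with sums taken for classes of at least 10 cells. The classes were compared with edgeR 4.0.16 (R 4.3.3; quasi-likelihood test, TMM factors, library as a block, Benjamini-Hochberg over all genes tested, threshold 0.05), with DESeq2 1.42.0 as an alternative. All class contrasts came from 1 fit of 20 sums, of Mφ-like, Siglecf-, Siglecf+, DC-like and T-like cells in 4 libraries that differ in genotype and time. The spread it uses is therefore pooled over these classes, and is not that of a single class difference over the libraries. The SE was derived from the test statistic of that fit. Libraries were compared by log2 ratio with exact conditional binomial 95% intervals (pseudocount 0.5 UMIs). Other steps used Python 3.11.15, scanpy 1.11.5, scipy 1.17.1 and leidenalg 0.10.2. Simulated counts, drawn from a pooled profile with known changes added, were used to try the DC-like to Mφ-like contrast and the test of time by class. The other contrasts and the intervals of the ratios were not tried in this way.

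The members, lists and tests were chosen with earlier results of these data known. Named in the text are up to 8 members per comparison with the largest change past the threshold or past 2-fold, the 5 members with most UMIs, and up to 3 genes of each other list. Other members are named where a role group is described, and these were chosen after their values were seen.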

Additional observations from a re-analysis of the deposited data

Results flagged for a closer look

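For 11 members the change from 24 h to 72 h differed between neutrophil-like and Mφ-like cells in the edgeR test, and in CPM both genotypes of a class moved one way and those of the other class the opposite way. The differences (log2, neutrophil-like minus Mφ-like, past the threshold) were 2.46 for Mif, 2.21 for Higd1a, 1.79 for Ankrd37, 1.72 for Aldoa, 1.69 for Tpi1, 1.64 for Ldha, 1.59 for Gapdh, 1.34 for Pgk1, 1.10 for Slc16a3, 1.09 for Pgam1 and 1.04 for Eno1. With TMM factors 8 of the 11 still moved in opposite directions, and Slc16a3, Pgam1 and Eno1 did not, with neutrophil-like changes of -0.12, -0.07 and -0.08 in WT and -0.18, 0.08 and 0.26 in CCR2 KO. The sum of the members moved by -1.16 in WT and -0.71 in CCR2 KO Mφ-like cells, and by 0.41 and 0.50 in neutrophil-like cells. The difference of the sums was not tested, and the positive values of neutrophil-like cells depend on the scaling.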

How the results depend on the processing

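Alternatives added after seeing the data were no TMM factors in the class tests, Siglecf-positive cells from 2 UMIs in those other than the Siglecf test, leaving out dividing or Siglecf-positive cells, and the test of time by class with all its alternatives. No paired analysis was possible because each group is 1 library, so replicate numbers pair nothing, while the class tests compared classes within libraries. Of the alternative values of the main results 158 kept their side and size, 49 moved and 1 reversed, and of those of named genes 361 kept their call, 25 lost it and 0 reversed, leaving aside the removal of the few Scrublet calls.

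For the sum in Mφ-like cells, the CCR2 KO to WT ratio at 24 h (-0.05) was -0.087 with stricter gates, -0.0053 with TMM, -0.12 without Gapdh and -0.13 with every cell weighted equally. At 72 h (0.41) it was 0.83 at 5% mitochondrial UMIs, 0.59 without dividing cells, and 0.34 with TMM or without Gapdh. The change with time in WT (-1.16) was -1.18 with stricter gates, -1.21 at 5% mitochondrial UMIs and -1.27 with TMM. In CCR2 KO (-0.71) it was -0.74 with Leiden classes, -0.34 at 5% mitochondrial UMIs, -0.52 without dividing cells, -0.92 with TMM and -0.66 with equal weights. In neutrophil-like cells the CCR2 KO to WT ratio at 72 h (0.12) was 0.18 without Siglecf-positive cells, 0.047 without Gapdh and 0.013 with equal weights. The change with time reversed in WT with TMM (-0.14), and in CCR2 KO (0.50) was 0.63 without Siglecf-positive cells, 0.0055 with TMM, 0.44 without Gapdh and 0.42 with equal weights. The cause was not tested.

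At a minimum of 50 CPM, members past 2-fold numbered 1 in place of 3 (Mφ-like, CCR2 KO to WT at 24 h), 6 in place of 10 (Mφ-like with time in CCR2 KO), 3 in place of 5 and 1 in place of 2 (neutrophil-like, CCR2 KO to WT at 24 h and 72 h). With TMM the counts were 0 (Mφ-like, CCR2 KO to WT at 72 h) and 4 in place of 10 (neutrophil-like with time in CCR2 KO), and at 5% mitochondrial UMIs the former was 7. Lower members with Siglecf numbered 10 without a filter, 1 without the block and 0 without TMM factors, where 1 was higher. Leaving out 1 library gave 14 to 18 higher and 2 to 10 lower members in neutrophil-like, 2 to 3 and 7 to 11 in DC-like, 4 to 5 and 9 to 17 in T-like cells, 0 to 5 lower with Siglecf, and 11 to 14 higher and 2 to 3 lower for time by class, where a lone library of a time is assumed to vary like the others. Lower members in that test numbered 1 with DESeq2, without TMM factors, without Siglecf-positive cells and at 5% mitochondrial UMIs, and 4 with stricter gates or without dividing cells. A count of 3 was 0.721 to 6.44 CPM in neutrophil-like and 5.17 to 53.7 CPM in T-like sums.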

Other observations

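Ldhb, nearly missing from neutrophil-like and DC-like cells, was read in innate lymphoid cell-like cells at 29.5 CPM over all libraries (19 UMIs), and in T-like cells at 15.3 CPM (18 UMIs). In NK cell-like and B cell-like cells 0 UMIs of Ldhb were found, where a count of 3 would be 6.49 and 9.65 CPM. These are sums over small classes, with no test between them.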
